A study of Mus musculus with 18 samples.

Results

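Neurotensin, encoded by Nts, and its receptors Ntsr1, Ntsr2 and Sort1 were examined in microdissected lateral septum (LS) of female mice. A gene was taken by its symbol, on the probesets annotated to that gene alone, and the brightest of these would have been used. Each of the 4 genes had 1 such probeset, so 4 of the 35557 probesets on the array, and 4 of the 19938 genes with a probeset of their own, are described. The mice were outbred hsd:ICR females of about 70 days of age, in 3 groups of 6 mice, and RNA of each mouse was run on 1 Affymetrix array (Mouse Gene 1.0 ST). Lactating maternal females had given birth, had litters set to 11 pups, and were dissected on postpartum day 7 with the litter still present. Pups removed females had also given birth with litters set to 11, lost the litter on postpartum day 2, and were dissected on postpartum day 7. Virgin females were of the same age, had never mated and were collected alongside. The study's methods state that pups removed and virgin females were in diestrus, and no estrous state is given there for the maternal group. Values are log2 PLIER signal, a probe-weighted summary of each probeset, and levels are compared between mice for 1 gene but not between genes.

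Neurotensin is a short neuropeptide cut from a larger precursor and stored in dense core vesicles. Ntsr1 and Ntsr2 are receptors coupled to G proteins, and Ntsr1 signals mainly through Gq and phospholipase C. Ntsr2 binds the peptide less tightly and is known from astrocytes as well as neurons. Sort1 encodes sortilin, a receptor with a Vps10p domain that binds neurotensin but is not coupled to G proteins and mostly sorts proteins between the Golgi, endosomes and the cell surface. Neurotensin neurons are well known in the septal area, where the peptide alters neuronal firing.

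The region upstream of Nts is shown because AP-1 and cyclic AMP response elements near the start site are known to drive the rat gene. The 250 bases before the annotated start lie at chr10:102490419-102490668 on the minus strand (RefSeq, GRCm38.p6), and capitals mark the matches to both motifs.
Nts upstream: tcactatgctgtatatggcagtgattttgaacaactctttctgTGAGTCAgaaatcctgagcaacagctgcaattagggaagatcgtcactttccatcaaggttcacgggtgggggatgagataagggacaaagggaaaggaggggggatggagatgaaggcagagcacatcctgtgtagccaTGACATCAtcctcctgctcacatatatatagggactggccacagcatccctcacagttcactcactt
The AP-1 motif was searched as TGANTCA and the cyclic AMP response element as TGACNTCA, on both strands. The first matched at -207 to -201 and the second at -67 to -60, counted from the start site. Of 32851 upstream regions of this length, 6.75% held the first motif, 7.49% the second and 0.578% both. The windows of Ntsr1 and Ntsr2 held neither, and Sort1 was not searched. These matches describe letters only, and the arrays give no measure of binding.

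As a rough check of background, 1194 olfactory and vomeronasal receptor genes, which LS is not known to use, had means with a median of 5.31 and a 95th percentile of 6.97. Over the 18 arrays Nts averaged 8.80, Ntsr1 7.82, Ntsr2 10.89 and Sort1 10.88, each above that percentile. The median of all probeset means on the array was above it too, so most probesets pass this check and it separates few. Ntsr1 was only slightly above that median of all probeset means. The means of Nts and Ntsr1 were above those of 1192 and 1188 of the receptor genes, and those of Ntsr2 and Sort1 above all 1194. Probes differ in their own brightness, so this orders no gene against another. All 10 markers of lateral septal neurons were also above that percentile, and their mean level was 10.11 in maternal, 10.12 in pups removed and 10.14 in virgin LS. Differences were tested with limma across all 35557 probesets, with Benjamini-Hochberg adjustment, and a probeset was called where the adjusted p was below 0.25. At that threshold 1.65% of probesets were called between maternal and virgin LS, 0.0309% between maternal and pups removed LS, and 0.208% between pups removed and virgin LS. Of the 12 member comparisons, 1 was called, that of Sort1 between maternal and virgin LS.

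The peptide gene Nts was not called in any comparison. It had a log2 signal of 8.86, 8.95, 8.60, 8.57, 8.63 and 8.87 in maternal LS. In pups removed LS it was at 8.39, 8.67, 9.40, 9.15, 8.59 and 8.29, and in virgin LS at 8.86, 8.93, 9.02, 8.80, 8.80 and 9.0. All 3 groups overlapped, and the pups removed mice held both the highest and the lowest values of the series. The log2 difference between maternal and virgin LS was -0.16 (95% interval -0.47 to 0.16, adjusted p = 0.762 by limma). Between maternal and pups removed LS it was 0.00 (-0.31 to 0.31, adjusted p = 1.0), and between pups removed and virgin LS -0.15 (-0.47 to 0.16, adjusted p = 0.847). The last of these moved to -0.28 without pups removed replicate 3 and to -0.06 without pups removed replicate 6, not called in either fit. The fit shares 1 spread over the 3 groups, so the wide spread of pups removed mice enters the maternal minus virgin interval. With the maternal and virgin groups alone, the unadjusted limma p of that difference was 0.0566 (adjusted p = 0.492), against 0.31 in the shared fit. Its exact permutation p was 0.0952 (adjusted p = 0.584), and 3 maternal mice lay below every virgin mouse. In tissue of mixed cells, fewer cells that express a gene and less RNA per cell cannot be told apart.

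**Figure D1:**
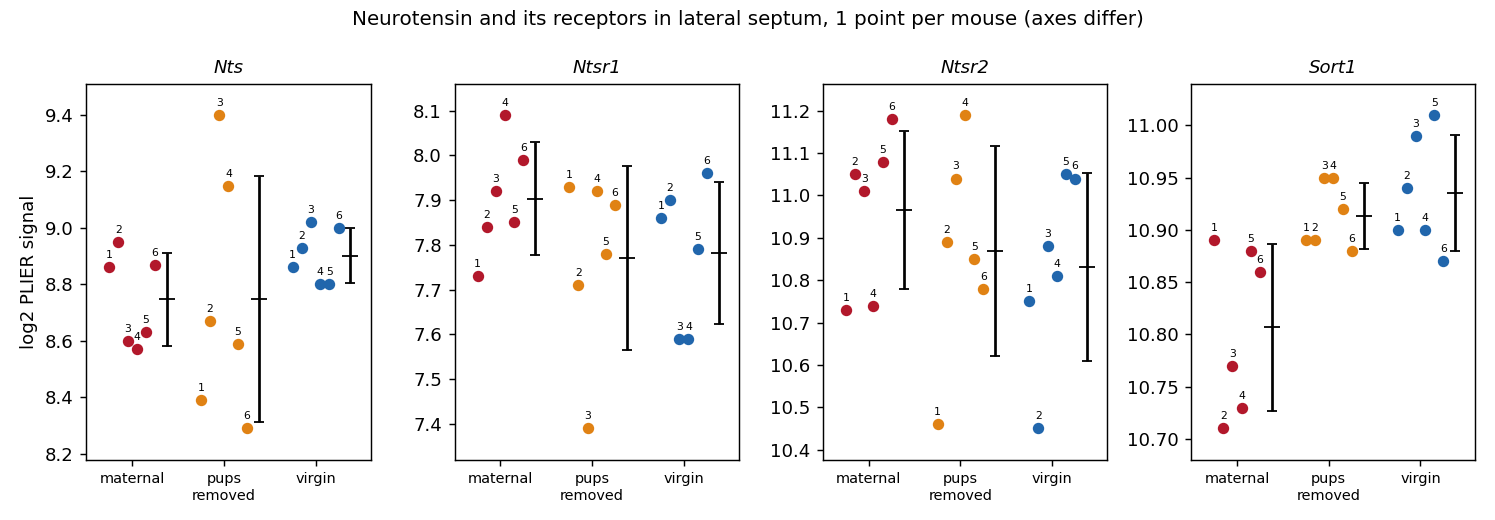
Log2 PLIER signal of Nts, Ntsr1, Ntsr2 and Sort1 in maternal, pups removed and virgin LS, with 1 point per mouse numbered by replicate and bars giving the mean ± SD of 6 mice. Nts spread most among pups removed mice, and 4 maternal mice lay below every virgin mouse for Sort1.

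What set Nts apart in the pups removed group was its spread. Its SD was 0.17 in maternal, 0.44 in pups removed and 0.10 in virgin LS, so that the pups removed SD was 2.65 times the maternal and 4.51 times the virgin SD. Both ratios were at least as large for 34 probesets, or 0.0956% of the array, a description for which no test was made. Ntsr1 and Ntsr2 also had their largest SD among pups removed mice, at 0.205 and 0.248. The share of probesets with an SD at least as large as that of Nts was 19.5% in maternal, 2.38% in pups removed and 58.5% in virgin LS. Replicates 3 and 4 were the high mice, at 9.40 and 9.15, and the other 4 lay between 8.29 and 8.67. The same pair was also highest of the group for Ntsr2 and for Sort1. Within the 6 pups removed mice Pearson's r was 0.79 between Nts and Ntsr2 and 0.92 between Nts and Sort1, as a description that rests largely on this pair. Sort1 spanned only 0.07 in this group, with values written to 2 decimals, and 97.6% of probesets had at least its SD. Between Nts and Ntsr1 it was -0.66, and replicate 3, the highest mouse for Nts, was the lowest of all 18 for Ntsr1. The r with Ntsr2, Sort1 and Ntsr1 were 0.24, 0.10 and -0.49 in the maternal group and -0.01, -0.09 and 0.18 in the virgin group.

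Markers of neighbouring tissue moved with these mice. The 6 choroid plexus markers averaged 7.72 and 7.66 in pups removed replicates 3 and 4, against 9.68 to 10.20 in the other 4. The 7 markers of medial septal and diagonal band neurons measured averaged 7.85 and 8.06 in that pair, above the other 4. Low choroid plexus means were also seen in maternal replicates 2, 5 and 4, at 7.82, 7.88 and 8.36, where Nts was at 8.95, 8.63 and 8.57, among the highest and the lowest of that group. In virgin replicate 6 the choroid plexus mean was 7.87 and Nts was at 9.0. The part of these tissues in the Nts spread was not tested.

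**Figure D2:**
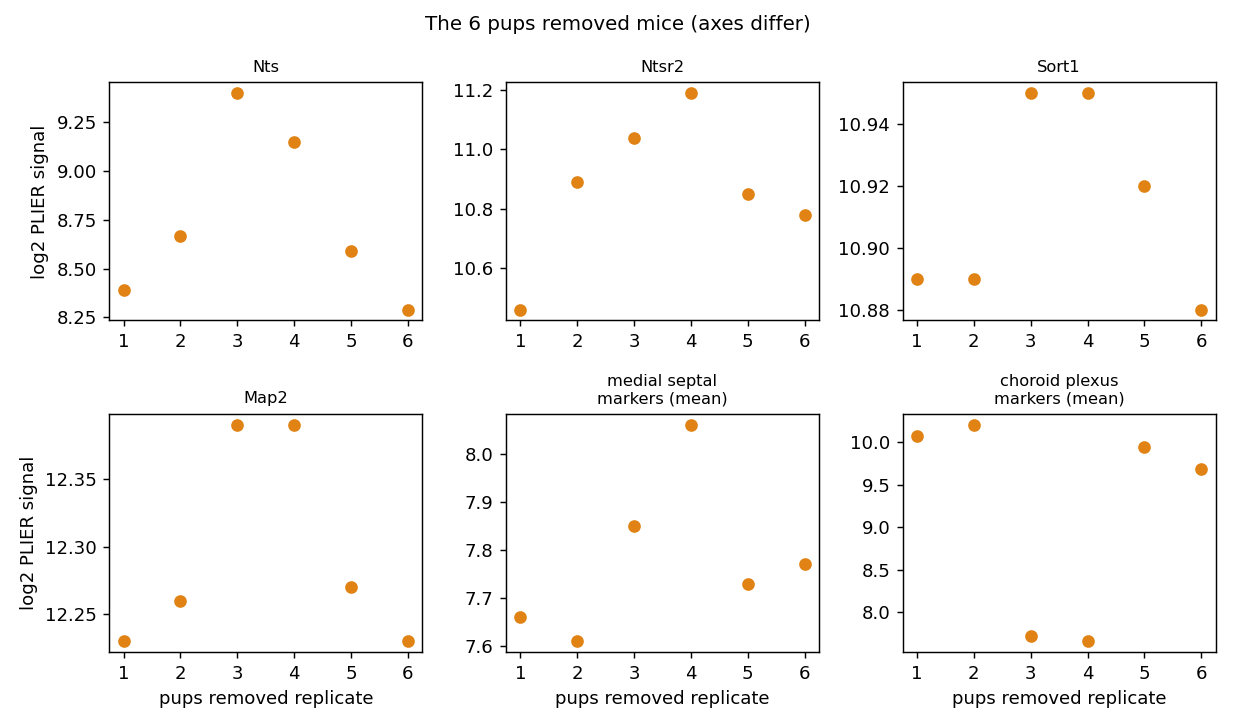
Log2 PLIER signal in each of the 6 pups removed mice for Nts, Ntsr2, Sort1 and Map2, and the mean over medial septal and over choroid plexus markers. Replicates 3 and 4 were highest for the genes shown and for the medial septal mean, and lowest for the choroid plexus mean.

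Ntsr1, the high-affinity receptor gene, was not called. It was at 7.73, 7.84, 7.92, 8.09, 7.85 and 7.99 in maternal LS. It was at 7.93, 7.71, 7.39, 7.92, 7.78 and 7.89 in pups removed LS and at 7.86, 7.90, 7.59, 7.59, 7.79 and 7.96 in virgin LS. The highest mouse was maternal and the lowest was in the pups removed group, and the groups overlapped over most of their range. The log2 difference was 0.12 between maternal and virgin LS (95% interval -0.07 to 0.31, adjusted p = 0.674 by limma) and 0.13 between maternal and pups removed LS (-0.06 to 0.33, adjusted p = 0.697). It was -0.01 between pups removed and virgin LS (-0.20 to 0.18, adjusted p = 0.985). The difference between maternal and pups removed LS was 0.06 without pups removed replicate 3.

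Ntsr2, the receptor gene also known from astrocytes, was not called either. It was at 10.73, 11.05, 11.01, 10.74, 11.08 and 11.18 in maternal LS. It was at 10.46, 10.89, 11.04, 11.19, 10.85 and 10.78 in pups removed LS and at 10.75, 10.45, 10.88, 10.81, 11.05 and 11.04 in virgin LS. Each group covered much the same range. The log2 difference was 0.14 between maternal and virgin LS (95% interval -0.12 to 0.39, adjusted p = 0.737 by limma), 0.10 between maternal and pups removed LS (-0.15 to 0.35, adjusted p = 0.847) and 0.04 between pups removed and virgin LS (-0.21 to 0.29, adjusted p = 0.962). The difference between maternal and virgin LS was 0.06 without virgin replicate 2. The 13 astrocyte markers averaged 10.32 in maternal, 10.30 in pups removed and 10.32 in virgin LS, and none was called between maternal and virgin LS.

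Sort1 was lower in lactating maternal LS relative to virgin, by a small amount. It was at 10.89, 10.71, 10.77, 10.73, 10.88 and 10.86 in maternal LS and at 10.90, 10.94, 10.99, 10.90, 11.01 and 10.87 in virgin LS. Pups removed mice were at 10.89, 10.89, 10.95, 10.95, 10.92 and 10.88. The virgin mean exceeded the value of each of the 6 maternal mice, and 4 maternal mice were below every virgin mouse, but the groups overlapped between 10.87 and 10.89. The log2 difference between maternal and virgin LS was -0.13 ± 0.04 (SE), a signal 0.915 times that of virgin LS, with a limma adjusted p of 0.238, in a comparison where 0.813% of all probesets were called lower. As a change in signal this was -8.51% (95% interval -13.4% to -3.31%).

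That call lay close to the threshold of 0.25. An exact two-sided permutation test over the 924 splits of these 12 mice gave p = 0.0108 for Sort1, against a smallest possible 0.0022, and 0.358 after adjustment over all probesets. The smallest possible p itself had an adjusted p of 0.259, so this test could call no probeset between maternal and virgin LS. The difference kept its sign in each of the 18 fits without 1 array, at -0.15 to -0.11, while the adjusted p ran between 0.164 and 0.416. The study's methods state that RNA was prepared in matched sets with a mouse of each group, but the labels do not say which mice formed a set. Blocked by replicate number, Sort1 had an adjusted p of 0.311. Among the fits without 1 array it missed the threshold in 12, those without virgin replicates 2, 3, 4 or 5, maternal replicates 2, 3, 4, 5 or 6, or pups removed replicates 1, 2 or 5. Without maternal replicates 5 and 6 the unadjusted limma p of Sort1 was 0.00212 and 0.00306, below the 0.0034 of the reported fit. In the rest of the 12 it was larger. An adjusted p also depends on the other probesets, and 10 and 163 were called in those 2 fits, against 585.

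**Figure D3:**
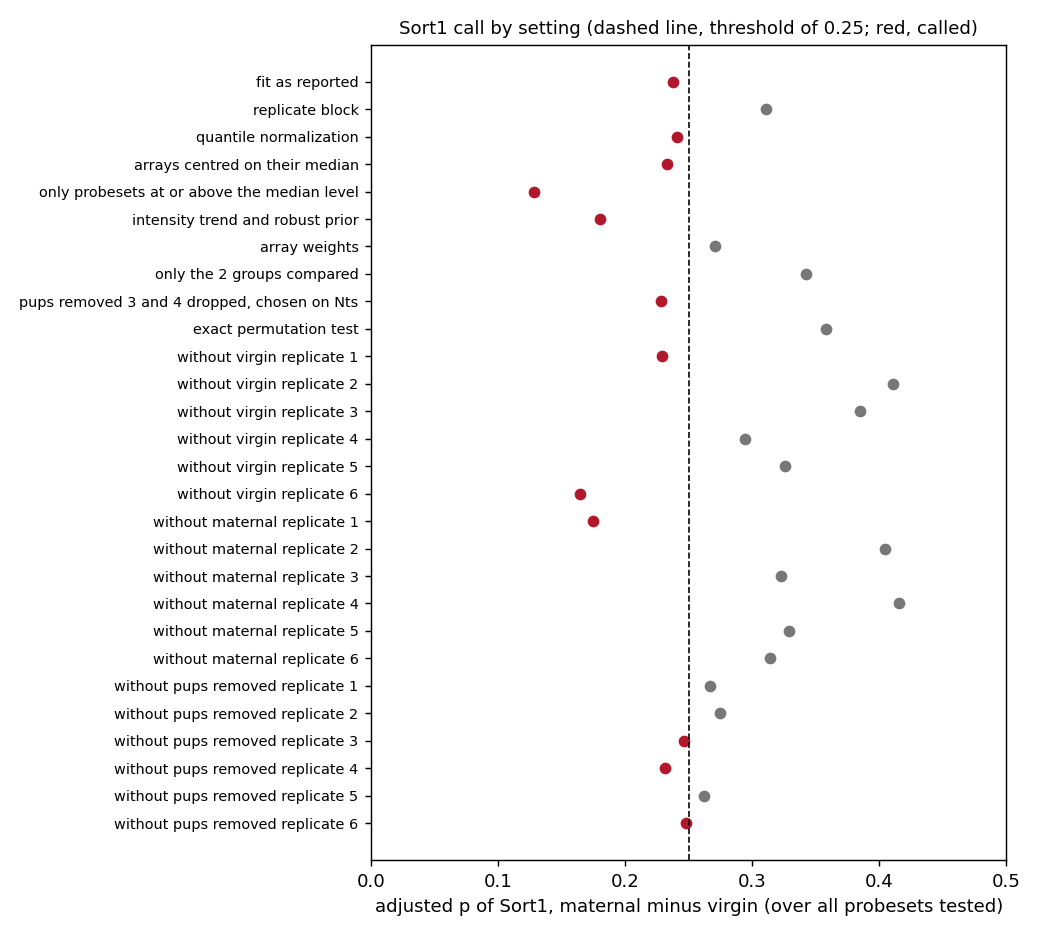
Adjusted p of Sort1 between maternal and virgin LS for the reported fit, for each other setting and for each array left out, with the threshold of 0.25 as a dashed line and calls in red. The values lie on both sides of the line, between 0.128 and 0.416, and the setting chosen on Nts was added after the data had been seen.

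Against the pups removed group the maternal difference of Sort1 was -0.11 (95% interval -0.19 to -0.03, unadjusted p = 0.0117, adjusted p = 0.437 by limma) and was not called. All 6 maternal mice were below the pups removed mean. At an unadjusted p under 0.05, 8.96% of all probesets were found in that comparison. Between pups removed and virgin LS the difference was -0.02 (-0.10 to 0.06, adjusted p = 0.927).

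**Figure D4:**
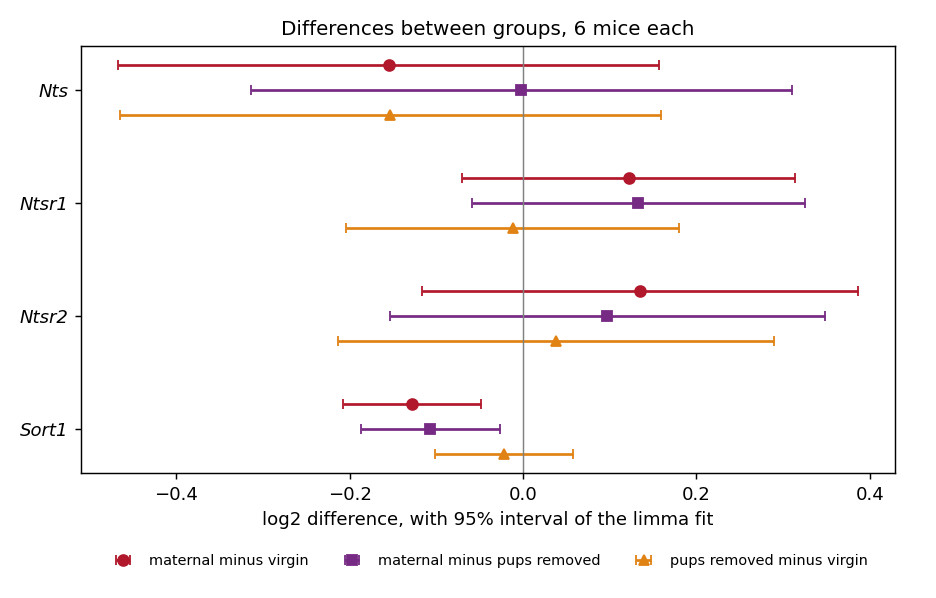
Log2 differences of the 4 genes in 3 comparisons, with the 95% interval of the limma fit and 6 mice per group. The intervals of Sort1 for maternal minus virgin and maternal minus pups removed lie below 0, and the other 10 intervals include 0.

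Some markers of tissue next to LS were lower on the same maternal arrays, and others were higher. All 16 striatal markers measured were lower in maternal LS relative to virgin, 5 of them called, in a comparison where 0.813% of all probesets were called lower. The striatal mean level was 9.69 ± 0.22 in maternal, 10.03 ± 0.36 in pups removed and 10.15 ± 0.11 in virgin LS (SD, n = 6 each). Across 18 mice, with deviations taken from the group means, Sort1 and the striatal mean had r = 0.15 (permutation p = 0.556; rho = 0.22, p = 0.385). Within groups the sign differed, with r = 0.46 in maternal, -0.54 in pups removed and 0.74 in virgin mice, so the pooled value describes no single group. Of 7 neural stem cell and neuroblast markers, 6 were lower and 4 of these were called. All 6 choroid plexus and all 5 ependymal markers had lower means without a call. In contrast, 6 of 7 medial septal and diagonal band markers and 7 of 11 hypothalamic and preoptic markers were higher, none of them called. The part of such tissue in the Sort1 difference was not tested.

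Among the 4 relatives of sortilin with the same domain, Sorcs2 was called. Sorcs2, a receptor for proneurotrophins, was at 9.44 to 9.57 in the 6 maternal mice, at 9.51 to 9.67 in the pups removed mice and at 9.60 to 9.74 in the virgin mice. Maternal and virgin mice did not overlap, and the log2 difference was -0.14 ± 0.04 (SE, adjusted p = 0.179 by limma). It was not called with the replicate number as a block (adjusted p = 0.275), nor without virgin replicate 2 or maternal replicates 2, 4, 5 or 6. Without maternal replicate 5 its unadjusted limma p was 0.000693, against 0.000944 in the reported fit, and it was larger in the others of these fits. The exact permutation test, which could call no probeset, gave Sorcs2 its smallest possible p (adjusted p = 0.259). Sorl1, a sorting receptor for the amyloid precursor, differed by -0.06 (adjusted p = 0.637), Sorcs1 by 0.04 (adjusted p = 0.684) and Sorcs3 by 0.02 (adjusted p = 0.932). The median over the 4 genes was -0.02, against 0.01 over all probesets.

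**Figure D5:**
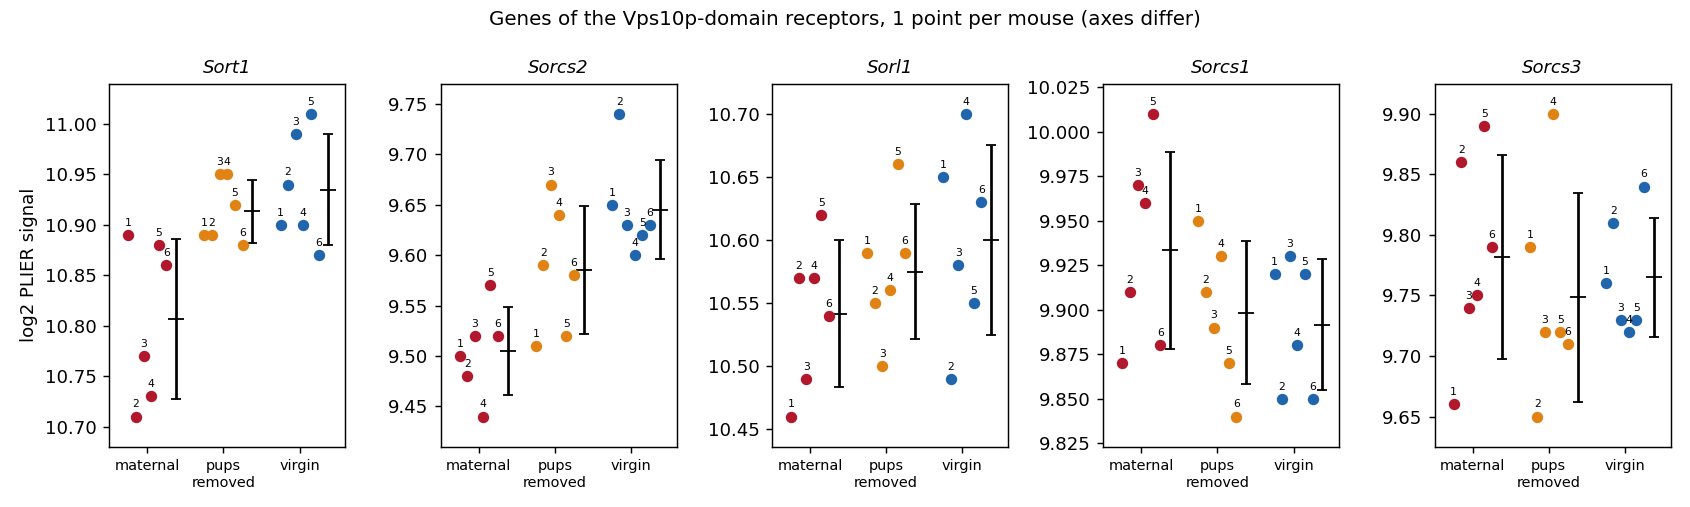
Log2 PLIER signal of Sort1, Sorcs2, Sorl1, Sorcs1 and Sorcs3 in maternal, pups removed and virgin LS, with 1 point per mouse and bars giving the mean ± SD of 6 mice. Maternal and virgin mice were separate for Sorcs2 and overlapped for the other 4 genes.

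Of 13 genes measured for partners and cargo of sortilin, 5 were higher and 8 lower in maternal LS relative to virgin, and Lpl was called. Lpl, the lipoprotein lipase that sortilin can carry, averaged 7.18 ± 0.28 in maternal, 7.62 ± 0.35 in pups removed and 7.76 ± 0.09 in virgin LS (SD, n = 6 each). Its log2 difference between maternal and virgin LS was -0.58 ± 0.14 (SE, adjusted p = 0.165 by limma). It was not called without virgin replicate 2 or maternal replicates 2, 4 or 5. The exact permutation test, which could call no probeset, gave Lpl its smallest possible p (adjusted p = 0.259). The median over the 13 genes was -0.02. Maternal replicate 4 was the lowest mouse for Lpl, at 6.68, and for the striatal mean, at 9.30. Pups removed replicates 2, 5 and 6 were the highest of their group for both. Virgin replicate 1 was lowest of its group for the striatal mean, at 10.01, but not for Lpl, at 7.77. The part of striatal tissue in the Lpl difference was not tested.

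The genes that make and destroy the peptide showed no call. For precursor processing, 2 of 6 measured genes were higher and 4 lower in maternal LS relative to virgin, none of them called. The smallest p of this list were those of Scg5, the chaperone of a precursor convertase, and Cpe, the carboxypeptidase that trims cut precursors, between pups removed and virgin LS, at -0.05 (unadjusted p = 0.124, adjusted p = 0.733 by limma) and -0.05 (unadjusted p = 0.176, adjusted p = 0.766). Between maternal and virgin LS, Scg5 differed by -0.02 (adjusted p = 0.862) and Cpe by -0.01 (adjusted p = 0.958). All 5 peptidases that cleave neurotensin had lower means in maternal LS relative to virgin and relative to pups removed, with medians of -0.10 in both. All 16 striatal and all 6 choroid plexus markers were lower in both comparisons too, while 6 and 5 of 7 medial septal markers were higher. The part of such tissue in the peptidase differences was not tested. Prep differed by -0.07 relative to virgin (adjusted p = 0.577) and by -0.09 relative to pups removed (adjusted p = 0.548). Mme, neprilysin, differed by -0.17 relative to virgin (adjusted p = 0.476) and is also on the list of lateral septal markers.

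Of 17 measured genes of Gq and phospholipase C signaling, the pathway of Ntsr1, 5 were higher and 12 lower in maternal LS relative to virgin, and none was called. Gna11, a Gq-class alpha subunit, differed by -0.10 (adjusted p = 0.346 by limma). Plcb3, a phospholipase C, differed by -0.14 between maternal and pups removed LS (adjusted p = 0.447). Among 20 other neuropeptide precursors, 10 were higher and 10 lower in maternal LS relative to virgin, with a median difference of -0.01 and a mean of -0.06. Tac1 and Penk, also among the striatal markers, differed by -0.58 (adjusted p = 0.37 by limma) and -0.39 (adjusted p = 0.323), and neither was called. Nmu, the neuromedin U precursor, was called, at 6.54 ± 0.14 in maternal, 6.19 ± 0.15 in pups removed and 6.14 ± 0.14 in virgin LS (SD, n = 6 each), a log2 difference between maternal and virgin LS of 0.40 ± 0.08 (SE, adjusted p = 0.111). That call was lost without maternal replicate 5. The exact permutation test, which could call no probeset between these groups, gave an adjusted p of 0.30. These Nmu levels lay below the 95th percentile of the olfactory and vomeronasal receptor genes. Outside maternal against virgin LS, none of the genes on these 6 lists was called. The paper differs here, as it lists Nmu below 0.25 against both virgin and pups removed mice. The cause of that difference was not tested.

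The 4 genes were set against each other and against 5 marker means over the 18 mice, as deviations from group means, 26 relations in all. None passed 0.05 after adjustment. The strongest was between Sort1 and the astrocyte mean, with r = 0.66 (permutation p = 0.00302, adjusted p = 0.0785) and rho = 0.64 (p = 0.00514, adjusted p = 0.134). Without the 2 mice farthest from the median r was 0.51, and within groups it was 0.87 in maternal, 0.33 in pups removed and 0.66 in virgin LS. Nts and the medial septal mean had r = 0.57 (permutation p = 0.0165, adjusted p = 0.146) and rho = 0.49 (p = 0.0432, adjusted p = 0.187), with r = 0.48 without the 2 farthest mice and 0.33, 0.64 and 0.45 within maternal, pups removed and virgin mice. Ntsr2 and the lateral septal mean had r = -0.55 (permutation p = 0.0169, adjusted p = 0.146) and rho = -0.48 (p = 0.0431, adjusted p = 0.187). Without the 2 farthest mice that r was -0.39, and it was -0.57, -0.74 and -0.42 within maternal, pups removed and virgin mice.

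The genes most like each member were ranked by the same deviations among 11488 genes whose mean was at or above the median of all probesets, as a description over 18 mice. For Nts they were Map2 (r = 0.90), Slbp (0.87), Rasgrf2 (0.85), Hpcal1 (0.85) and Zfp397 (0.85). Map2, a microtubule protein of dendrites, was highest at 12.39 in pups removed replicates 3 and 4, against 12.23 to 12.27 in the other 4. For Ntsr1 they were Treml1 (r = 0.85), 2510039O18Rik (0.81), Trp53i11 (0.79), Cbln1 (0.78) and Tle2 (0.78). For Ntsr2 they were Prrc2b (r = 0.86), Dennd6b (0.85), Asic1 (0.85), R3hdm2 (0.83) and Map3k12 (0.82). For Sort1 they were Irf2bp2 (r = 0.89), Bgn (0.84), Kif3c (0.84), Kdm2a (0.83) and Ss18l2 (0.82). No member was among the 5 most like another.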

How the data were processed

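The authors deposited log2 PLIER signal for 35557 probesets on 18 arrays, made with Affymetrix Power Tools 1.12.0 and GC-bin background correction and written to 2 decimals. The normalization between arrays is not given in the sources used here. Array medians were 7.61 to 7.70, and the number of arrays limits the precision. Genes were named from the platform annotation: 21789 probesets named 1 gene, 1621 several and 12147 none. The 3 groups were fitted together with limma 3.58.1 in R 4.3.3, with no block and no filter, after the code was tested on simulated data. P-values were adjusted by Benjamini-Hochberg over all probesets, at the threshold the methods name. The members and the 6 pathway and 14 marker lists, with 167 of 184 genes measured, were chosen with earlier results of these data known. Named were the members, the called genes of each pathway list (otherwise the 2 with the smallest p), the other 3 sortilin relatives, and 5 most alike genes per member. Tac1 and Penk were named in addition, as they are also striatal markers, and Adcyap1, as the paper lists it. Correlations used 100000 permutations. Alternatives were a replicate block, quantile normalization, median centring, a filter on dim probesets, an intensity trend with robust prior, array weights, the compared groups alone, exact permutation and each array left out. Leaving out pups removed replicates 3 and 4 together was added after seeing the data.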

Additional observations from a re-analysis of the deposited data

Results flagged for a closer look

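In Sorcs2, virgin replicate 2 stood apart as the highest of 6 virgin mice, at 9.74. The gap to the next mouse, as a share of the group's range, was above the critical value of Dixon's test. It was 1 of 39 groups of 6 examined, over 13 genes, and chance marks about 1 in 20. Without this mouse the Sorcs2 difference between maternal and virgin LS was -0.12 and was not called (adjusted p = 0.355 by limma).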

How the results depend on the processing

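The Sort1 difference between maternal and virgin LS was negative in every setting run. It was called with quantile normalization, median centring, the filter on dim probesets, and the trend with robust prior. It was not called with the replicate block (-0.128, adjusted p = 0.311 by limma), array weights (-0.125, adjusted p = 0.271) or the 2 groups alone (-0.128, adjusted p = 0.342), nor in 12 of 18 fits without 1 array (-0.145 to -0.109 over all 18). Exact permutation, which could call no probeset, gave an adjusted p of 0.358. Without 1 array the unadjusted limma p of Sort1 was 0.00167 to 0.0107. An adjusted p depends on all probesets as well as on the gene, and the cause of each lost call was not tested. Uncalled differences near 0 changed sign. Nts between maternal and pups removed LS was 0.024 with quantile normalization, 0.012 with median centring, 0.059 with array weights and -0.093 to 0.129 without 1 array. Between pups removed and virgin LS, Ntsr1 was -0.05 to 0.064 without 1 array, and Ntsr2 was -0.023 with array weights and -0.038 to 0.12 without 1 array.

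In 1 setting added after the data had been seen, pups removed replicates 3 and 4 were left out. They were chosen for their high Nts, so this fit selects mice on the value compared and is no test of Nts, nor of Ntsr2 or Sort1, highest there too. Nts between maternal and pups removed LS was then 0.262, which passed the threshold (adjusted p = 0.243 by limma) and is not reported as a call. Between pups removed and virgin LS Nts was -0.417 (adjusted p = 0.278), Ntsr1 0.046 and Ntsr2 -0.085.

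Probesets called between maternal and virgin LS numbered 585, against 356 with the block, 1309 with the filter, 932 without the chosen pair and 10 to 1639 without 1 array. Between maternal and pups removed LS they numbered 11, against 42 with quantile normalization, 7 with centring, 225 with the filter, 30 with the trend, 783 with weights, 1508 without the pair and 5 to 719 without 1 array. Between pups removed and virgin LS they numbered 74, against 24 with the filter, 42 with weights, 33 with 2 groups, 16 without the pair and 18 to 266 without 1 array. Exact permutation called 0 in each (3469, 3167 and 2300 at unadjusted p under 0.05). Between maternal and virgin LS its smallest possible p had an adjusted p of 0.259, so no call was possible there. Higher calls made up 90.5% between pups removed and virgin LS, against 59.6% with quantile normalization and 59.8% with centring, and 72.7% between maternal and pups removed LS, against 100% with centring, 88.9% with the block, 46.7% with the trend, 29% with weights and 17.8% with the filter. RNA was prepared in matched sets, but no label ties numbers to sets: r of deviations was over 0.1 in 0 of 18 same-number pairs, and 1 of 18 arrays was most like its own number. True sets may pair mice otherwise. Averaging probesets was not run, as each member had 1.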
